A study of Mus musculus with 6 samples.

Results

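Otx2, Fgf5, Pou3f1, Zic2, Zic5 and Sox3 were taken as a group of formative and primed epiblast factors, and all probes that carry 1 of these names in the scanner files were read on all 6 arrays. Each gene had 1 probe, which gave 6 of the 27669 gene names and 6 of the 41174 probes on the array. All 6 were among the 28371 probes kept for testing, those well above background on both arrays of 1 or more groups. The RNA was total RNA of J1, an established line of mouse embryonic stem cells, collected 96 hours after siRNA transfection and hybridised to 1-colour (Cy3) Agilent arrays. Cells received a non-targeting siRNA (NT) or an siRNA to knock down Thoc2 or Thoc5, with 2 arrays per group and no other treatment or allele named. All groups shared 1 cell line, ESGRO as the maintenance medium and M10 as the medium during transfection. The proteins Thoc2 and Thoc5 belong to THO, a complex that binds new transcripts and takes part in mRNA export. Total RNA pools nuclear and cytoplasmic transcripts, so the values are mRNA levels and not export.

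When pluripotent cells leave the naive state of the early blastocyst they pass through a formative state, in which they become able to respond to signals for the germ layers, and then reach the primed state of the epiblast around gastrulation. The transcription factor Otx2 acts early in this step and redirects the pluripotency factor Oct4 (Pou5f1) to other enhancers, partly together with the POU factor Pou3f1 (Oct6). Fgf5 is the classical marker of the epiblast, Zic2 and Zic5 are zinc finger factors of epiblast and neural plate, and Sox3 is a relative of Sox2 in epiblast and neural progenitors; naive embryonic stem cells hold most of these mRNAs at low levels.

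Every statement about a gene rests on a single 60-base probe, so the last 30 bases of each are shown to fix what was read. They are written 5′ to 3′ in lower case; capitals mark AATAAA, the canonical polyadenylation signal.
Fgf5: ttatattcctaaatgctgcAATAAAgaggc
Otx2: tgatcaaatatattctagcgacatgcaacc
Pou3f1: actctttttgttgtttattcggttttgctt
Zic2: attggcttattggtggatagaagtttgtcc
Zic5: gaagtttgccaatagcagcgatcgaaagaa
Sox3: ggcgacctgcgcgacatgatcagcatgtac
The letters AATAAA stood in the last 30 bases of 1 of the 6 probes as printed, that of Fgf5, and in 3.1% of all 41174 probes. Counting either strand, with no other motif searched, they stood in 2 of the 6, the other being the Pou3f1 probe, and in 5.10% of all probes. A match is only a description of these letters.

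By the coordinates in the file headers, which use mouse build mm7, the whole Fgf5 probe lies at chr5:97491844-97491903 on the plus strand and the Otx2 probe at chr14:43989807-43989866 on the minus strand. The Pou3f1 probe lies at chr4:124103741-124103800 on the plus strand, and that of Sox3 at chrX:56286797-56286856 on the minus strand. Zic2 (chr14:116884204-116884263, plus strand) and Zic5 (chr14:116864322-116864381, minus strand) are read from opposite strands by probes 19882 bases apart, and in assembly GRCm38.p6 only 1 listed gene, 2610035F20Rik, lies between them. Exon and UTR positions in mm7 were not used here. The probes differ in base composition: G and C made up 35% of the Otx2 and Fgf5 probes, 38.3% of Zic5, 41.7% of Zic2, 55% of Pou3f1 and 65% of Sox3. A lower G and C content than that of the Sox3 probe was found in 99.6% of all probes, so the Sox3 probe is extreme in this respect.

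Levels are given as the log2 signal minus the 75th percentile of the same array, so 0 is the 75th percentile and each step of 1 is a 2-fold difference. The arrays differed in brightness: the 75th percentile signal was 716 to 905 on 5 arrays and 306 on Thoc5 replicate 1, and the share of spots well above background ran from 56.7% on that array to 79.7% on Thoc2 replicate 1. Thoc2 replicate 1 also had 880 outlier spots, against 63 to 155 on the other 5 arrays, and per the file headers it was scanned on another day than they were. All 5 pluripotency markers checked (Pou5f1, Sox2, Nanog, Zfp42 and Esrrb) were well above background on all 6 arrays. The targeted mRNAs were each lower under their own siRNA, Thoc2 by a log2 difference of -0.86 ± 0.28 (SE) and Thoc5 by -1.27 ± 0.27 (SE, 2 arrays per group). The labels do not say whether the replicates were separate cultures, so every p-value below measures only the spread between these arrays, which may be technical, and the small number of arrays limits the precision.

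Across the group, the Otx2 and Zic5 readings were lower under both THO siRNAs than under NT siRNA, with Otx2 lowest under Thoc5 siRNA and Zic5 mostly not well above background under either siRNA, whereas Fgf5, Pou3f1, Zic2 and Sox3 had NT replicates that differed from each other by 0.66 to 2.58 on the log2 scale. Otx2 stood at 68.2% of its NT level under Thoc2 siRNA and at 49.0% under Thoc5 siRNA. None of the 6 genes passed the test after Benjamini-Hochberg adjustment over all probes in any comparison. That test called 0 probes (0%) in each of the 4 comparisons with limma, where 4284 probes for Thoc2 siRNA against NT and 5628 for Thoc5 siRNA against NT had an unadjusted p under 0.05. In bulk RNA, fewer cells that express a gene and less of its mRNA per cell cannot be told apart.

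**Figure D1:**
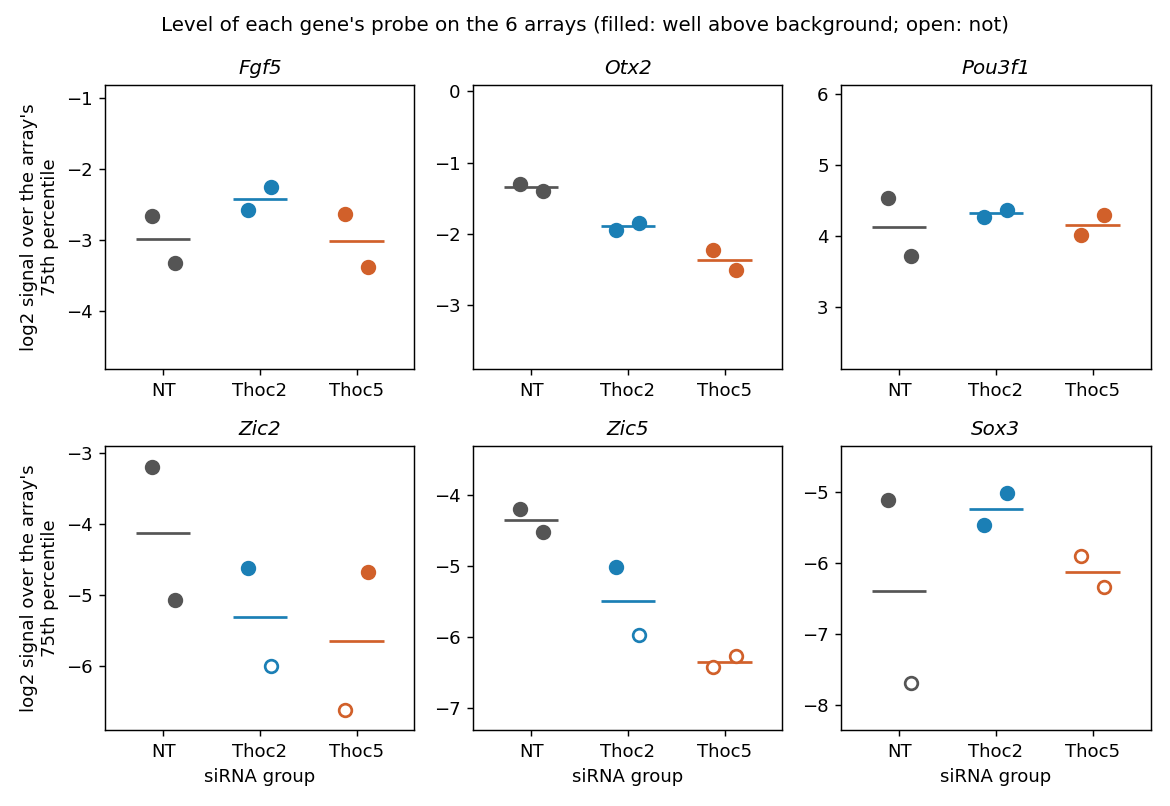
The vertical axis is the log2 signal over the array's 75th percentile and the horizontal axis the siRNA group; each point is 1 array, the line is the group mean, and open points are not well above background. The 2 Otx2 points of each group lie close together and the groups step down from NT to Thoc2 to Thoc5, whereas the NT points of Zic2, Sox3 and Pou3f1 lie far apart. Every panel spans 4 log2 units.

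Fgf5 is the only secreted ligand of the group, a fibroblast growth factor that signals through FGF receptors. Its levels were -2.67 and -3.32 under NT siRNA, -2.59 and -2.25 under Thoc2 siRNA, and -2.64 and -3.39 under Thoc5 siRNA (replicates 1 and 2), all well above background. Both Thoc2 arrays lay above both NT arrays by a narrow margin, and the Thoc5 arrays spanned nearly the same range as the NT arrays.
The log2 difference of Fgf5 was 0.58 ± 0.37 (SE) for Thoc2 siRNA against NT, with a limma p of 0.188 and a Benjamini-Hochberg adjusted p of 0.509, and the 95% interval of the ratio was 75.5% to 294%. For Thoc5 siRNA it was -0.02 ± 0.37 (adjusted p = 0.984), and the interval from 50% to 195% does not show that the groups were alike. Between the siRNAs the Fgf5 difference, Thoc5 minus Thoc2, was -0.60 ± 0.37 (limma adjusted p = 0.657), with both Thoc5 arrays below both Thoc2 arrays. Without NT replicate 2, the Thoc2 difference was 0.25.

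Otx2, the homeodomain factor that starts the formative program, had the smallest SE of the group, 0.17, and its probe was printed in 10 spots on each array, where the other 5 had 1. Its levels were -1.30 and -1.40 under NT siRNA, -1.95 and -1.85 under Thoc2 siRNA, and -2.24 and -2.52 under Thoc5 siRNA. On this scale all 3 groups lay apart, in the order NT, Thoc2, Thoc5 from high to low. On the linear scale the Otx2 signal was 40.7% and 38.0% of the array's 75th percentile under NT siRNA, 25.9% and 27.7% under Thoc2 siRNA, and 21.2% and 17.4% under Thoc5 siRNA. Every spot used was well above background, and the SD over the spots of an array ran from 0.08 to 0.20. On NT replicate 2 the lowest Otx2 spot was at -1.54, above the highest spot of either Thoc2 array, -1.73. The spots of the Thoc2 and Thoc5 arrays overlapped in part: the highest on Thoc5 replicate 1 was at -2.09 and the lowest used on Thoc2 replicate 1 at -2.14. Spots of 1 array share their RNA, so they show the reading error of an array and not the spread of the condition.

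**Figure D2:**
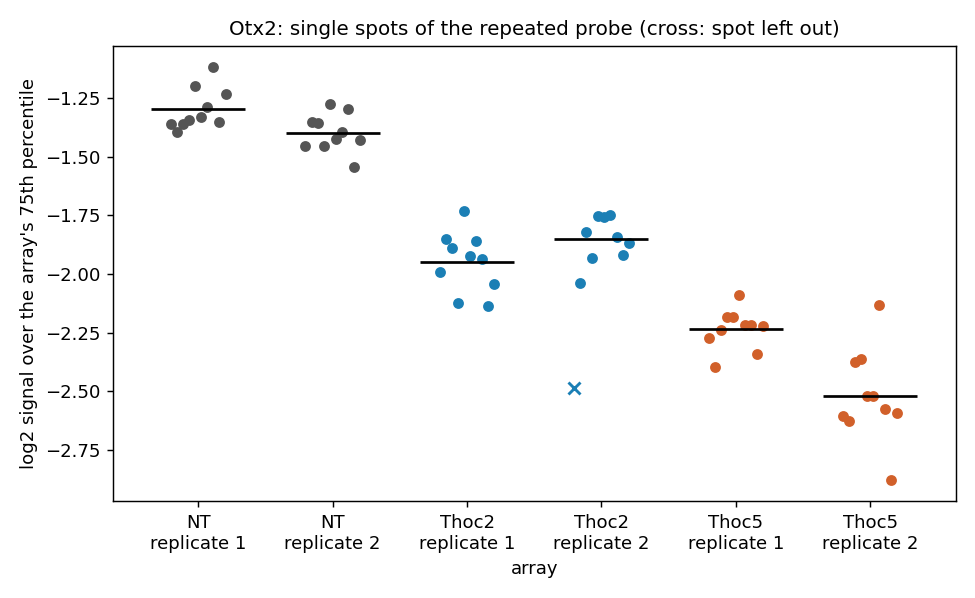
Each point is 1 spot of the Otx2 probe, each column 1 array, and the black line the mean of the array's spots; the vertical axis is the log2 signal over the array's 75th percentile. All NT spots lie above all Thoc2 and Thoc5 spots, and the cross on Thoc2 replicate 2 is the 1 spot left out for its outlier mark.

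The log2 difference of Otx2 between Thoc2 siRNA and NT was -0.55 ± 0.17 (SE, 2 arrays per group), with a limma p of 0.0264 and a Benjamini-Hochberg adjusted p of 0.281; the 95% interval of the ratio was 49.8% to 93.3% of NT. For Thoc5 siRNA it was -1.03 ± 0.17, with a limma p of 0.00245, an adjusted p of 0.106 and an interval of 35.8% to 67.0%. Both comparisons use the same NT arrays. The direct comparison of the siRNAs gave an Otx2 difference of -0.48 ± 0.17, Thoc5 minus Thoc2, with a limma p of 0.0426 and an adjusted p of 0.554. That step stayed below 0 in 16 of 16 other settings, but its size depended on the scaling. It was -0.09 with median scaling (limma p of 0.786) and -0.37 with quantile normalization (limma p of 0.144). Set among all probes, 10.5% had a lower difference than Otx2 for Thoc2 siRNA and 7.20% for Thoc5 siRNA, so its shift was toward the lower end of the array without being extreme.

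Otx2 kept its direction when arrays of the same slide were compared. NT replicate 1 and Thoc2 replicate 2 shared a slide, and the difference there was -0.56; NT replicate 2 and Thoc5 replicate 2 shared another, and it was -1.12. Leaving out each array in turn gave -0.60 to -0.50 for Thoc2 siRNA and -1.17 to -0.89 for Thoc5 siRNA. Among only the probes well above background on all 6 arrays, the limma adjusted p of Otx2 for Thoc5 siRNA was 0.0457, past the threshold, in a range of 0.0457 to 0.754 over all settings. With normexp background correction, run with an offset of 50, the Thoc2 difference turned to 0.05 and the Thoc5 difference was -0.30. The median of all probes was then 0.40 and 0.35, and the cause of these changes was not tested.

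Otx2 is also known from primitive endoderm, so markers of that tissue are given beside it. The summed linear signal of 7 endoderm markers, in units of the 75th percentile, was 5.84 and 0.753 on the NT arrays, 2.62 and 2.84 on the Thoc2 arrays, and 8.83 and 2.42 on the Thoc5 arrays, with 6 or 7 of the 7 well above background on each. Those sums overlapped between all groups. Of the 6 endoderm markers kept, 5 were above 0 and 1 below against NT for each siRNA. Their medians were 0.54 for Thoc2 siRNA and 1.08 for Thoc5 siRNA, against 0.06 and -0.09 over all genes. At an unadjusted limma p under 0.05, 0 were higher and 0 lower. The part of the endoderm markers in the Otx2 values was not tested. The summed signal of the 5 pluripotency markers was 278 and 260 under NT siRNA, 201 and 221 under Thoc2 siRNA, and 214 and 170 under Thoc5 siRNA, lower in both siRNA groups as Otx2 was. Zfp42, at levels of 6.86 to 7.62, was the brightest and weighs most in this sum. All 5 were below 0 in both comparisons. At an unadjusted limma p under 0.05, 0 were lower for Thoc2 siRNA and 3 for Thoc5 siRNA, against 6.42% and 12% of all genes. The part of these markers in the Otx2 result was not tested.

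Pou3f1, the POU-domain factor that acts beside Otx2, gave levels of 4.54 and 3.72 under NT siRNA, 4.27 and 4.37 under Thoc2 siRNA, and 4.02 and 4.30 under Thoc5 siRNA. The 2 NT arrays enclosed the other 4, so the groups overlapped. The difference was 0.19 ± 0.32 for Thoc2 siRNA and 0.03 ± 0.32 for Thoc5 siRNA against NT (limma adjusted p = 0.795 and 0.976), and -0.17 ± 0.32 between the siRNAs. The 95% interval of the ratio to NT was 64.0% to 204% for Thoc2 siRNA and 57.0% to 182% for Thoc5 siRNA, too wide to show that the groups were alike. Without NT replicate 2 the Pou3f1 differences turned to -0.22 and -0.38, and without NT replicate 1 they were 0.60 and 0.43, so the NT array chosen set the sign.

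Zic5 and Zic2 are neighbouring genes for zinc finger transcription factors. Zic5 stood at -4.19 and -4.51 under NT siRNA, at -5.01 and -5.97 under Thoc2 siRNA, and at -6.42 and -6.26 under Thoc5 siRNA. Only 3 of its 6 values, both NT arrays and Thoc2 replicate 1, were well above background; both NT arrays lay above the other 4, and the dim readings have no order among themselves. Neither Thoc5 array read Zic5 well above background, so its fold rests on a stand-in level. By that level Zic5 was 2.13-fold lower under Thoc5 siRNA than under NT siRNA. No fold is given between the siRNAs, since the stand-in level lay above the Thoc2 mean. For that level each dim array counted at its Zic5 level or at the lowest level of any probe well above background there, whichever was higher. The latter was -4.64 on Thoc5 replicate 1 and -6.74 on Thoc5 replicate 2. On Thoc5 replicate 2 the dim Zic5 reading itself was thus used, so 2.13-fold is not a sure minimum. The fold depends on the array: it was 3.75 without Thoc5 replicate 1 and 1.22 without Thoc5 replicate 2.

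The fitted log2 difference of Zic5 was -1.14 ± 0.36 for Thoc2 siRNA (limma p of 0.0291, Benjamini-Hochberg adjusted p of 0.287) and -1.99 ± 0.36 for Thoc5 siRNA (limma p of 0.00359, adjusted p of 0.112) against NT. The Zic5 probe was kept for testing through its NT arrays alone, so its difference is given as a description. Leaving out each array moved the Thoc2 difference between -1.62 and -0.66. With normexp background correction both differences against NT changed sign, to 1.02 and 0.89.

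Zic2 gave -3.19 and -5.07 under NT siRNA, -4.61 and -6.00 under Thoc2 siRNA, and -6.61 and -4.68 under Thoc5 siRNA. The groups overlapped, and Thoc2 replicate 2 and Thoc5 replicate 1 were not well above background. Its differences against NT were -1.17 ± 1.01 and -1.51 ± 1.01 (limma adjusted p = 0.615 and 0.480), with 95% intervals of the ratio of 7.03% to 280% and 5.55% to 222%, so these arrays did not settle a direction. This probe too was kept for testing through its NT arrays alone. Without NT replicate 1 the Thoc2 difference was -0.23, and without Thoc5 replicate 1 the Thoc5 difference was -0.54. Within the shared slides Zic2 differed by -2.80 for Thoc2 siRNA and by 0.40 for Thoc5 siRNA, in opposite directions.

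Sox3, the SOX factor of epiblast and early neural cells, lay near background everywhere. Its levels were -5.12 and -7.69 under NT siRNA, -5.48 and -5.02 under Thoc2 siRNA, and -5.91 and -6.35 under Thoc5 siRNA. NT replicate 2 and both Thoc5 arrays were not well above background, and the NT arrays enclosed those of Thoc5 siRNA. Against the stand-in level of the Thoc5 arrays, set as for Zic5, Sox3 was 1.18-fold higher under Thoc2 siRNA, which is not a sure minimum. The probe was kept for testing through the Thoc2 arrays alone, and without Thoc5 replicate 2 the stand-in level was not under the Thoc2 mean. Without Thoc5 replicate 1 the fold was 2.14. The fitted difference, Thoc5 minus Thoc2, was -0.88 ± 0.89 but turned to 0.0757 with quantile normalization and to 0.10 in the authors' deposited values. Against NT the differences were 1.16 ± 0.89 and 0.28 ± 0.89 (limma adjusted p = 0.572 and 0.895), and without NT replicate 2 they turned to -0.13 and -1.01. Neural progenitor markers, set beside the Zic and Sox3 values, summed to 6.77 and 7.34 on the NT arrays, 6.23 and 7.43 on the Thoc2 arrays, and 6.37 and 6.55 on the Thoc5 arrays, with 7 to 10 of 10 well above background; the groups overlapped. Primitive streak and mesoderm markers summed to 0.790 and 0.815 on the NT arrays, 0.719 and 0.888 on the Thoc2 arrays, and 0.565 and 0.641 on the Thoc5 arrays, with 4 to 7 of 7 well above background. The Thoc5 arrays were thus the lowest, and the part of these markers in the lower Thoc5 values was not tested. Fibroblast and feeder markers summed to 11.1 to 14.5 over the 6 arrays, and the groups overlapped. All these linear sums weigh the brightest genes most, here Acta2 at 3.26 to 3.74. Of 6 kept, Thy1 (-1.56 and -2.01) and Col1a1 (-0.97 and -1.37) were lower for both siRNAs at an unadjusted limma p under 0.05, against 6.42% and 12% of all genes. Col3a1, kept through its Thoc2 arrays alone, was higher for Thoc2 siRNA (2.03), against 8.15%. None passed after adjustment.

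**Figure D3:**
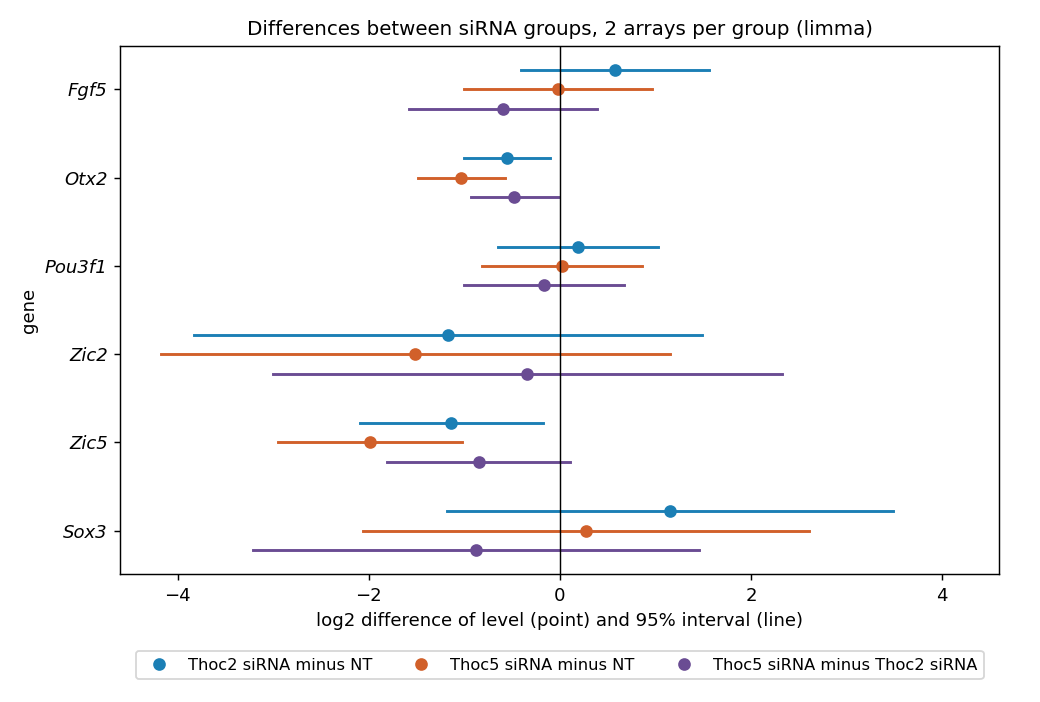
Points are log2 differences of level and lines their 95% intervals from limma, for Thoc2 siRNA minus NT, Thoc5 siRNA minus NT and Thoc5 siRNA minus Thoc2 siRNA. The intervals of Otx2 lie below 0 in all 3 comparisons and those of Zic5 in the comparisons with NT, before adjustment over all probes. The other 4 genes' intervals all span 0. Zic5 was kept through its NT arrays alone and was mostly not well above background under the THO siRNAs, so its intervals are a description.

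The counts of the group can be read against all probes. For Thoc2 siRNA against NT, 2 of the 6 genes (Otx2 and Zic5) were lower and 0 higher at an unadjusted limma p under 0.05, against 6.14% and 8.96% of all probes. Groups lay wholly apart with Thoc2 siRNA lower for the same 2 genes, against 19.6% of probes, and with Thoc2 siRNA higher for 1 gene (Fgf5), against 27% of probes. For Thoc5 siRNA against NT, again Otx2 and Zic5 were lower at that p and 0 genes higher, against 11.1% and 8.74% of probes, and the same 2 lay wholly below NT, against 29.5% of probes.
Between the siRNAs, 1 gene (Otx2) was lower under Thoc5 siRNA at an unadjusted p under 0.05 and 0 were higher, against 6.5% and 2.32% of all probes, and 4 genes (Otx2, Fgf5, Zic5 and Sox3) lay wholly below Thoc2 siRNA, against 30.1% of probes, though for Zic5 and Sox3 this orders readings that were not well above background. For the mean of both siRNAs against NT, 2 genes were lower and 0 higher, against 9.59% and 10.2% of probes: Otx2 at -0.79 ± 0.15 (limma adjusted p = 0.121) and Zic5 at -1.56 ± 0.31 (adjusted p = 0.126). The order NT above Thoc2 above Thoc5 with no overlap, seen for Otx2 among the genes measured on all arrays, held for 5.41% of all probes. With 6 genes chosen with earlier results of these arrays known, and Zic2 and Zic5 kept through their NT arrays alone, these counts describe the genes and carry no test. Median differences of all probes were 0.09 for Thoc2 siRNA and -0.05 for Thoc5 siRNA against NT.

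**Figure D4:**
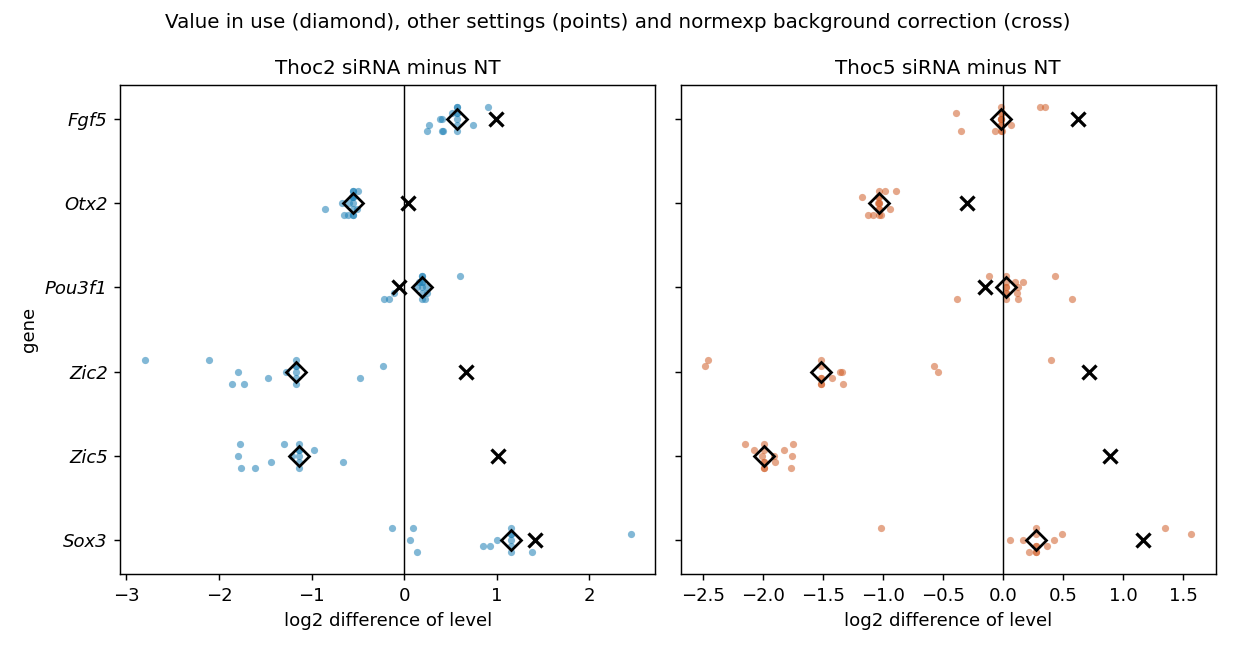
The horizontal axis is the log2 difference of level against NT; the diamond is the value in the text, points are the other settings and left-out arrays, and the cross is normexp background correction. For Otx2 all points other than the crosses lie below 0, whereas the points of Pou3f1 lie on both sides of 0 in both panels.

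Close relatives of the 6 genes did not share 1 pattern against NT. Of 13 family members listed, 12 were on the array under these names and 10 were kept for testing; Fgf4 was not analysed here, and Crx and Pou3f2 were each well above background on only 1 array. Against NT, 1 of the 10 was higher and 0 were lower for Thoc2 siRNA at an unadjusted limma p under 0.05, with a median difference of 0.47, beside 8.15% higher and 6.42% lower and a median of 0.06 over all genes. For Thoc5 siRNA 1 was higher and 3 lower, with a median of -0.18, beside 7.38% higher and 12% lower and a median of -0.09 over all genes. Between the siRNAs, Thoc5 minus Thoc2, all 10 were below 0, with a median of -0.63. Over all genes 12526 of 19306 were below 0, with a median of -0.13. None passed after adjustment over all probes. Of the 10, 3 (Zic1, Otx1 and Pou3f4) were kept through their Thoc2 arrays alone, where they are high. The counts and medians that involve Thoc2 siRNA, against NT and between the siRNAs, are therefore not independent of that filter.

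The gene counted as higher in both comparisons was Zic1, a neural member of the Zic family, which was not well above background on either NT array. Its readings were 2.65-fold higher under Thoc2 siRNA and 2.27-fold higher under Thoc5 siRNA, where 1 of the 2 arrays measured it. These folds use the dim NT readings themselves, -6.06 and -6.10, so they are descriptions and not minimum folds. Those counted as lower for Thoc5 siRNA were Sox2, the core pluripotency SOX factor (-0.52), and the growth factor genes Fgf8 (-0.67) and Fgf15 (-1.06). For Thoc2 siRNA Sox2 was at -0.50, close to its Thoc5 value, Fgf8 at -0.03 and Fgf15 at -0.44. The Thoc2 arrays of Sox2 and Fgf15 lay wholly below NT, as did 19.6% of all probes. Fgf8 levels were -1.64 and -1.57 under NT siRNA, -1.52 and -1.76 under Thoc2 siRNA, and -2.24 and -2.32 under Thoc5 siRNA, so only the Thoc5 arrays stood apart. Others differed, for Thoc2 and Thoc5 siRNA in turn, by 0.64 and 0.01 for Zic4, 1.09 and 0.23 for Otx1, 0.31 and 0.26 for Pou3f3, and 1.06 and -0.15 for Sox1. Pou3f4 was well above background on 1 NT array, both Thoc2 arrays and no Thoc5 array. With the dim arrays counted as for Zic5, it was 1.79-fold higher under Thoc2 than under Thoc5 siRNA. Pou3f4 was kept through its Thoc2 arrays alone, where it is high, so this fold is a description. It also rests on Thoc5 replicate 2, since the stand-in level of Thoc5 replicate 1, -4.64, lay above both Thoc2 readings, -4.91 and -4.80.

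FGF receptors and feedback genes of the ERK pathway, through which Fgf5 and other FGFs act, were read as a further list of 14 genes, all kept. For Thoc2 siRNA 3 were higher and 1 lower than NT at an unadjusted limma p under 0.05 (median difference 0.13), against 8.15% and 6.42% of all genes. For Thoc5 siRNA 3 were higher and 3 lower (median 0.22), against 7.38% and 12% of all genes, and none passed after adjustment. Dusp6, an ERK phosphatase, differed by 0.81 and 0.87 and Etv4, an ETS factor induced by ERK, by 0.71 and 0.73. Each lay wholly above NT in both groups. For Thoc2 siRNA this held for 27% of all probes, and the share was not computed for Thoc5 siRNA. Etv5, a relative of Etv4, differed by 0.70 for Thoc2 siRNA, and Dusp4 by 1.41 for Thoc5 siRNA. In the other direction stood Spry1, an inhibitor of the pathway, at -0.72 and -0.69, and for Thoc5 siRNA also Il17rd (-0.64) and Spred2 (-0.39), both inhibitors of FGF signalling. None of the 4 receptor genes Fgfr1 to Fgfr4 had a p under 0.05 in either comparison.

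Other genes known from formative and primed cells formed a list of 24, with 23 kept; some genes, Fgf8 and Fgf15 among them, are in this list and in the family list. For Thoc2 siRNA 1 was higher and 3 lower than NT at an unadjusted limma p under 0.05 (median difference -0.11), against 8.15% and 6.42% of all genes. For Thoc5 siRNA 1 was higher and 5 lower (median -0.14), against 7.38% and 12% of all genes, and none passed after adjustment. The DNA methyltransferase gene Dnmt3a had levels of 1.77 and 1.91 under NT siRNA, 0.85 and 0.90 under Thoc2 siRNA, and 0.72 and 0.47 under Thoc5 siRNA. Like Otx2, its 3 groups did not overlap and ran from NT through Thoc2 to Thoc5, with differences of -0.97 and -1.25 against NT. Dnmt3a was not alone in this order, which also held for Dnmt3b and Fgf15 in this list and for Il17rd, Tcl1, Fbxo15, Nr5a2 and Pou5f1 elsewhere. Its relative Dnmt3b differed by -0.38 and -0.56, the second with an unadjusted p under 0.05, and Sfrp2, a secreted modulator of WNT, by -0.37 and -0.56. Sall3, a zinc finger factor gene, was at 1.05 for Thoc2 siRNA, Sall2 at -0.41, and the keratin gene Krt18 at -0.54 for Thoc2 siRNA and 0.65 for Thoc5 siRNA. Trophectoderm markers, which include the keratin partner gene Krt8, summed to 7.67 and 7.47 on the NT arrays, 5.88 and 5.64 on the Thoc2 arrays and 9.90 and 8.95 on the Thoc5 arrays, with 5 or 6 of 6 well above background. These linear sums weigh the brightest genes most, and the markers did not move together. For Thoc2 siRNA 3 of the 5 kept were above 0 and 2 below (median 0.39, against 0.06 over all genes). For Thoc5 siRNA 4 were above and 1 below (median 0.52, against -0.09). Krt8 was at -0.34 and 0.68, and the dimmer Gata3 at 2.38 and 1.85. Their part in the Krt18 values was not tested. Etv1 was at -1.66 for Thoc2 siRNA through replicate 1 alone, which read -1.45 where the other 5 arrays read 1.68 to 2.24.

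**Figure D5:**
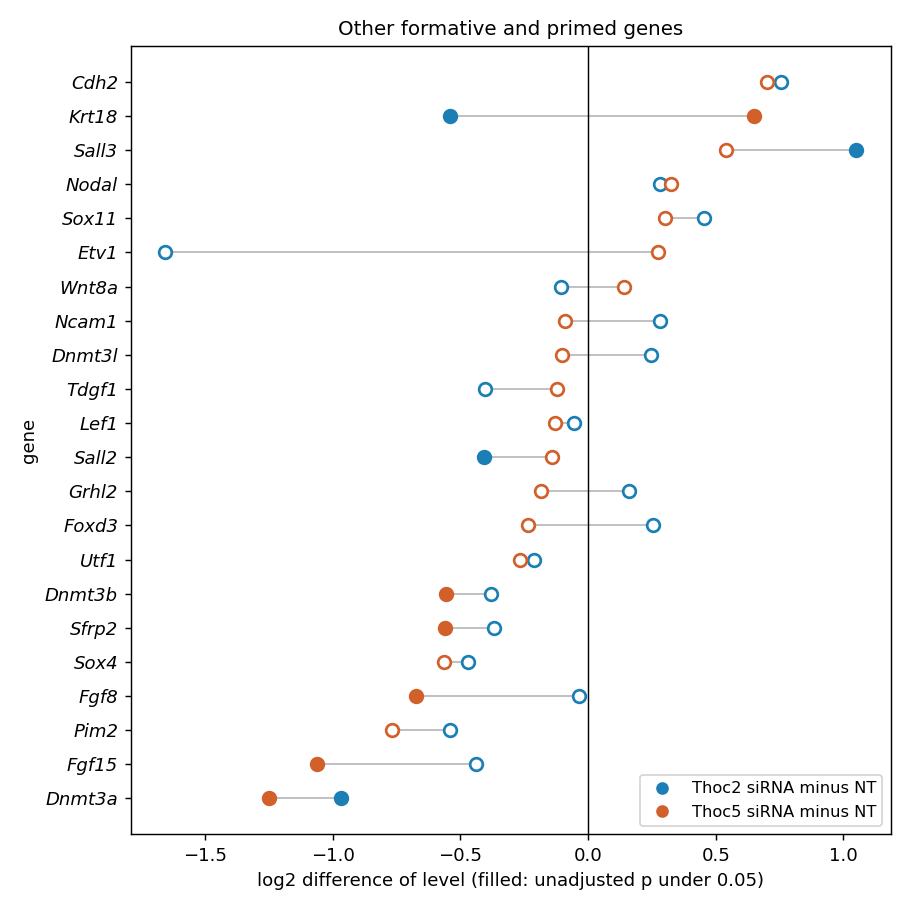
Each line is 1 kept gene of the list, sorted by the Thoc5 difference; the horizontal axis is the log2 difference of level against NT for Thoc2 and Thoc5 siRNA, and filled points have an unadjusted limma p under 0.05. Dnmt3a is the only gene with filled points for both siRNAs on the same side of 0, while Krt18 is filled on opposite sides.

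Naive pluripotency genes, the counterpart of the formative group, were read in the same way. Of 15 genes kept from a list of 17, 0 were higher and 3 lower than NT for Thoc2 siRNA at an unadjusted limma p under 0.05 (median -0.14), against 8.15% and 6.42% of all genes and a median of 0.06. For Thoc5 siRNA 0 were higher and 5 lower (median -0.27), against 7.38% and 12% of all genes and a median of -0.09, and none passed after adjustment. Dppa3, a maternal and naive-state factor gene, was at -1.99 and -1.87, and the F-box gene Fbxo15 at -0.86 and -1.21. Tcl1 was at -0.40 and -1.09, and for Thoc5 siRNA alone Nr5a2 was at -0.70 and Nanog at -0.50. Pou5f1, the factor that Otx2 redirects, was at -0.42 and -0.88.

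For the 3 genes well above background on all 6 arrays, the genes with the most similar profile were sought among 15056 other genes, as the smallest root mean square difference between profiles centred on their own mean. Nearest to Otx2 were AW455994 (0.0609), the serum amyloid gene Saa3 (0.0630) and the serine protease gene Prss50 (0.0654), which differed from NT by -0.62, -0.63 and -0.65 for Thoc2 siRNA and by -1.08, -1.14 and -1.14 for Thoc5 siRNA. Nearest to Pou3f1 were AV080718 (0.0728), LOC280121 (0.0734) and Ybx2 (0.0799). Fgf5 had no neighbour as close: St6galnac3 (0.150), AK133600 (0.157) and the thrombin receptor gene F2r (0.159) came first. Only 6 arrays enter each profile and they share scaling and slides, so likeness is a description of these arrays.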

How the data were processed

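Per the file headers, the deposited scanner files give a background-subtracted and detrended processed intensity for each spot, and mark spots that are outliers, saturated or well above background. The file headers name Feature Extraction 9.5.3.1 and the submitters' processing notes 11.0. The deposited series table holds log2 values with a median of 5.82 on every array; ranked by Spearman's method they correlated at 1 with the processed signals, so scale and direction follow from it, and how the authors centred it is not given in the sources used here.

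Levels were log2 of the processed signal minus the array's 75th percentile over non-control spots. After removal of outlier spots the mean over a probe's spots was used. Probes with at least 0.5 of their spots well above background on both arrays of 1 or more groups were kept. limma 3.58.1 in R 4.3.3 (lmFit and eBayes) was fitted to all 6 arrays with 3 residual and 1.61 prior degrees of freedom; p-values are two-sided and adjusted by Benjamini-Hochberg over all kept probes, with a threshold of 0.05. With 2 arrays per group the smallest p of an exact permutation test is 0.333. Errors are SEs of the fit. Slides came from the array barcodes. The fit was tested on simulated data with the probes' real means and spreads. Figures were drawn with matplotlib 3.10.9.

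Lists used 1 probe per gene, the brightest kept. Named were the 6 genes, their family members, up to 6 genes of a list with the smallest p, the 3 most similar profiles, and Pou5f1, Sox2, Nanog, Thoc2 and Thoc5 as checks; Etv1 and 2610035F20Rik were added after their values or positions were seen. The values of 1 gene of the lists are not reported here, though it enters their counts and medians. Genes and lists were chosen with earlier results of these data known. Probe names and sequences are those of the deposited files; of 41174 probes 8440 could not be matched to the RefSeq table of GRCm38.p6 and kept their file name, and this table named 0 further probes as one of the 6 genes. Alternatives were other normalizations and filters, a replicate block, a slide block, and leaving out each array.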

Additional observations from a re-analysis of the deposited data

How the results depend on the processing

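The results were recomputed under 17 other settings, of which the filter on all 6 arrays leaves out Zic2, Zic5 and Sox3 and the comparison within shared slides covers only the 6 genes against NT; the cause of each change below was not tested. Only these settings gave probes past the adjusted threshold: probes well above background on all 6 arrays (738 for Thoc5 siRNA against NT and 684 for both siRNAs against NT, with fewer probes tested) and limma with an intensity trend and robust variances (4 for Thoc2 siRNA, 928 for Thoc5 siRNA and 902 for both). Otx2 stayed below NT for Thoc5 siRNA in 17 of 17 settings, and had an unadjusted p under 0.05 in 15 of the 16 with a test. Normexp background correction, which moved the median of all probes to 0.40 and 0.35 for Thoc2 and Thoc5 siRNA, changed most signs: for Thoc2 siRNA against NT, Otx2 to 0.045, Pou3f1 to -0.0523, Zic2 to 0.67 and Zic5 to 1.02; for Thoc5 siRNA, Fgf5 to 0.62, Pou3f1 to -0.15, Zic2 to 0.72 and Zic5 to 0.89; for both, Pou3f1 to -0.10, Zic2 to 0.69 and Zic5 to 0.95; and for Thoc5 against Thoc2 siRNA, Zic2 to 0.0509. Median scaling, which moved the median of all probes to -0.22 for Thoc2 siRNA and to 0.28 between the siRNAs, gave -0.11 for Pou3f1 with Thoc2 siRNA and 0.0675 for Fgf5 with Thoc5 siRNA against NT, and 0.22 for Pou3f1 and 0.0512 for Zic2 between the siRNAs. In that last comparison quantile normalization gave 0.40 for Zic2, 0.0056 for Zic5 and 0.0757 for Sox3, and the authors' deposited values gave 0.44, 0.0379 and 0.10.

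Leaving out 1 array changed signs for 9 differences. For Thoc2 siRNA against NT the range was -0.22 to 0.60 for Pou3f1 and -0.13 to 2.45 for Sox3; for Thoc5 siRNA -0.39 to 0.35 for Fgf5, -0.38 to 0.43 for Pou3f1 and -1.01 to 1.57 for Sox3; for both, -0.0509 to 0.61 for Fgf5, -0.30 to 0.52 for Pou3f1 and -0.57 to 2.01 for Sox3; between the siRNAs -1.31 to 0.63 for Zic2. Leaving out NT replicate 2 gave 7 of the 12 sign changes; a lone array left in a group is assumed to vary like the others. The replicate block, and the slide as a random block, changed no sign and called 0 probes; with the replicate block Otx2 was at -0.55 and -1.03 (limma adjusted p = 0.343 and 0.218). The numbers were not taken as a pairing: deviations of same-numbered arrays correlated at -0.19, 0.14 and 0.21 over 27994 probes. Dim signal limits Zic2, Zic5 and Sox3, which were not well above background on 2 or 3 of 6 arrays.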
